A study of Homo sapiens with 60 samples.

Results

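This comparison asks what separates HT29 cells given the lowest dose of any of 6 medicinal plant extracts from HT29 cells given only the vehicle. HT29 is an established line of human colorectal adenocarcinoma cells that carries traits of absorptive and mucus-secreting gut epithelium. The low-dose arm holds the 17 libraries whose titles name a low dose of a single plant, out of 60 libraries used here. Angelicae Gigantis Radix has 2 libraries, at 12.8 µg/mL. The other plants, with 3 libraries each at 20 µg/mL, are Cinnamomi Cortex, Astragali Radix, Paeoniae Radix, Rehmanniae Radix Preparata and Cnidii Rhizoma. The control arm holds 3 libraries treated with dimethyl sulfoxide (DMSO), which the sample labels give as 0.1% and the design text of the series as 2%. Cells were exposed for 24 h, and the extracts were made with 70% ethanol. The solvent in which the extracts reached the cells was not given in the sources used here, so extract and solvent cannot be told apart. All titles carry the same batch letter, but the sample codes of the vehicle begin with D1 and those of the plants with 11, 12 or 13, so the code set and the treatment cannot be told apart either. The labels do not state whether replicates are separate cultures. The p-values therefore measure only the spread between these samples, which may be technical. Each plant had equal weight in the pooled contrast, and the fit covered 51 libraries, without the high dose of Astragali Radix.

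As background, a cell's polyadenylated RNA holds messages from 2 genomes. The mitochondrial genome encodes a small set of respiratory chain subunits and is transcribed inside the organelle, while most respiratory subunits and all cytosolic ribosomal proteins are nuclear genes with short messages. RNA-seq libraries can also differ in how well they recover GC-rich, AT-rich, short or long messages, and in how much incompletely spliced RNA they hold. For that reason the genes were also described by exonic length, GC content and introns.

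Total counts were 21077025 to 23107716 in the vehicle libraries and 21904227 to 30327461 in the low-dose libraries. A pair of libraries stood apart from the others of their group. In pairwise comparisons of counts, the chi-square for an average gene was 12.8 between vehicle replicates 3 and 1. It was 13.0 and 11.8 between low-dose Cinnamomi Cortex replicate 1 and its partners, against 2.42 to 6.05 for the other pairs. The summed level of 10 colon epithelium markers was 11103 to 11824 CPM (counts scaled to library size) in vehicle and 11647 to 12350 in the low doses, and none of them was at 0. The markers of fibroblasts and smooth muscle summed to 3.33 to 4.18 CPM in vehicle and 2.69 to 4.11 in the low doses, with COL1A2 at 0 in all 20 libraries. The endothelial markers summed to 1.70 to 2.42 CPM and 1.39 to 2.34 CPM. Hepatocyte markers, mostly SERPINA1, summed to 468.9 to 493 CPM in vehicle and 373.2 to 447.6 in the low doses, with APOA2, FGA and FGB at 0. The blood list, mostly LYZ, summed to 1402 to 1461 and 1413 to 1704 CPM, with CD3D, MS4A1 and SPI1 at 0, and the lung list to at most 1.15 CPM. The part of other cell types in the results was not tested.

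Of 16608 genes tested with edgeR's quasi-likelihood test, 2758 were higher and 2641 lower in the low doses at a Benjamini-Hochberg adjusted p under 0.05, which is called here. These are 16.6% and 15.9% of the genes, the background against which each gene list is read. Among genes with introns of at least 5 CPM the shares were 23.1% higher and 22.3% lower, a closer background for lists of abundant genes. Most of the differences were small. The median absolute log2 difference of called genes was 0.19, and 443 of them, 8.21%, differed by more than 0.5 on the log2 scale. All 17 low-dose libraries lay above all 3 vehicle libraries for 993 called genes (5.98% of genes tested) and below them for 1006 (6.06%). Scaling by library totals in place of the trimmed mean of M values (TMM) moved the split to 4259 higher and 1490 lower and the median of all genes from 0.004 to 0.058. The number of genes higher was 1822 without vehicle replicate 3, and the calls fell to 1112 higher and 827 lower when the high dose of Astragali Radix was added to the fit.

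PGGHG had the second largest rise by the rule for named genes, and it codes for a glucosidase that removes glucose from the hydroxylysine-linked disaccharide of collagen (GRCh38 chromosome 11, 289135 to 296107, plus strand). It stood at 58.3, 64.5 and 62.2 CPM in the 3 vehicle libraries, and at 104.2, 120.2 and 140.5 CPM in the lowest, median and highest of the low-dose libraries. The groups did not overlap, and the log2 differences of the single plants ran from 0.86 to 1.09. The log2 difference was 0.96 ± 0.06 (SE; adjusted p = 3.5e-15, edgeR). KLHL17, an actin-binding Kelch protein on chromosome 1 (960587 to 965715), rose in the same way, from 8.85, 10.8 and 9.2 CPM to 13.8, 16.2 and 18 CPM. Its log2 difference was 0.74 ± 0.05 (adjusted p = 8.5e-14). On the other side, CD55, which protects cells from complement at their surface (chromosome 1, 207321376 to 207386804), fell from 79.2, 89.1 and 67.1 CPM to 48.1, 51.1 and 56.7 CPM. Its log2 difference was -0.61 ± 0.05 (adjusted p = 2.9e-11), again with no overlap. TLE4, a Groucho family corepressor (chromosome 9, 79571773 to 79726882), fell from 20.0, 21.2 and 16.5 CPM to 10.9, 12.9 and 14.8 CPM, a log2 difference of -0.58 ± 0.07 (adjusted p = 3.9e-08).

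The 4 messages differ in base composition, a property by which all genes are compared further on. They were picked after their values were seen, among the most abundant protein-coding genes of the largest rises and falls. The pick left out genes of a single chromosome, and with it RHPN1, a rise more abundant than KLHL17. Each line gives 120 bases from the middle of the longest coding sequence in GENCODE v29 (GRCh38, all on the plus strand), with G and C in capitals. The stretches of PGGHG, CD55 and TLE4 cross introns.
PGGHG: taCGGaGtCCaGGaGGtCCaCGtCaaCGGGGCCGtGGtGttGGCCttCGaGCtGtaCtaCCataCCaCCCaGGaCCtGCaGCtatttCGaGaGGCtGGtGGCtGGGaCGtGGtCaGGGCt
KLHL17: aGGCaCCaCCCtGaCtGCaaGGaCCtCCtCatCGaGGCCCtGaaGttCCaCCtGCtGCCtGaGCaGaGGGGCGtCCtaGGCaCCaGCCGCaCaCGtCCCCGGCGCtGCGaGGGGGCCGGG
CD55: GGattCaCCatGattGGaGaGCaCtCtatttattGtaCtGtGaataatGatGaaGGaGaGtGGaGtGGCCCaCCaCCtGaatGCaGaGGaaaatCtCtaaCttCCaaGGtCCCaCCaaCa
TLE4: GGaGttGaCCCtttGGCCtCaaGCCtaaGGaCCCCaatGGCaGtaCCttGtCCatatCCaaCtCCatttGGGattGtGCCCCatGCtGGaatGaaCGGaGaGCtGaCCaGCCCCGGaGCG
G and C make up 61.7% of the stretch of PGGHG, 70.0% of KLHL17, 45.0% of CD55 and 56.7% of TLE4. Over the whole coding sequences the shares were 63.4%, 66.3%, 46.2% and 52.7%. Both genes that rose were richer in G and C than both that fell.

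**Figure D1:**
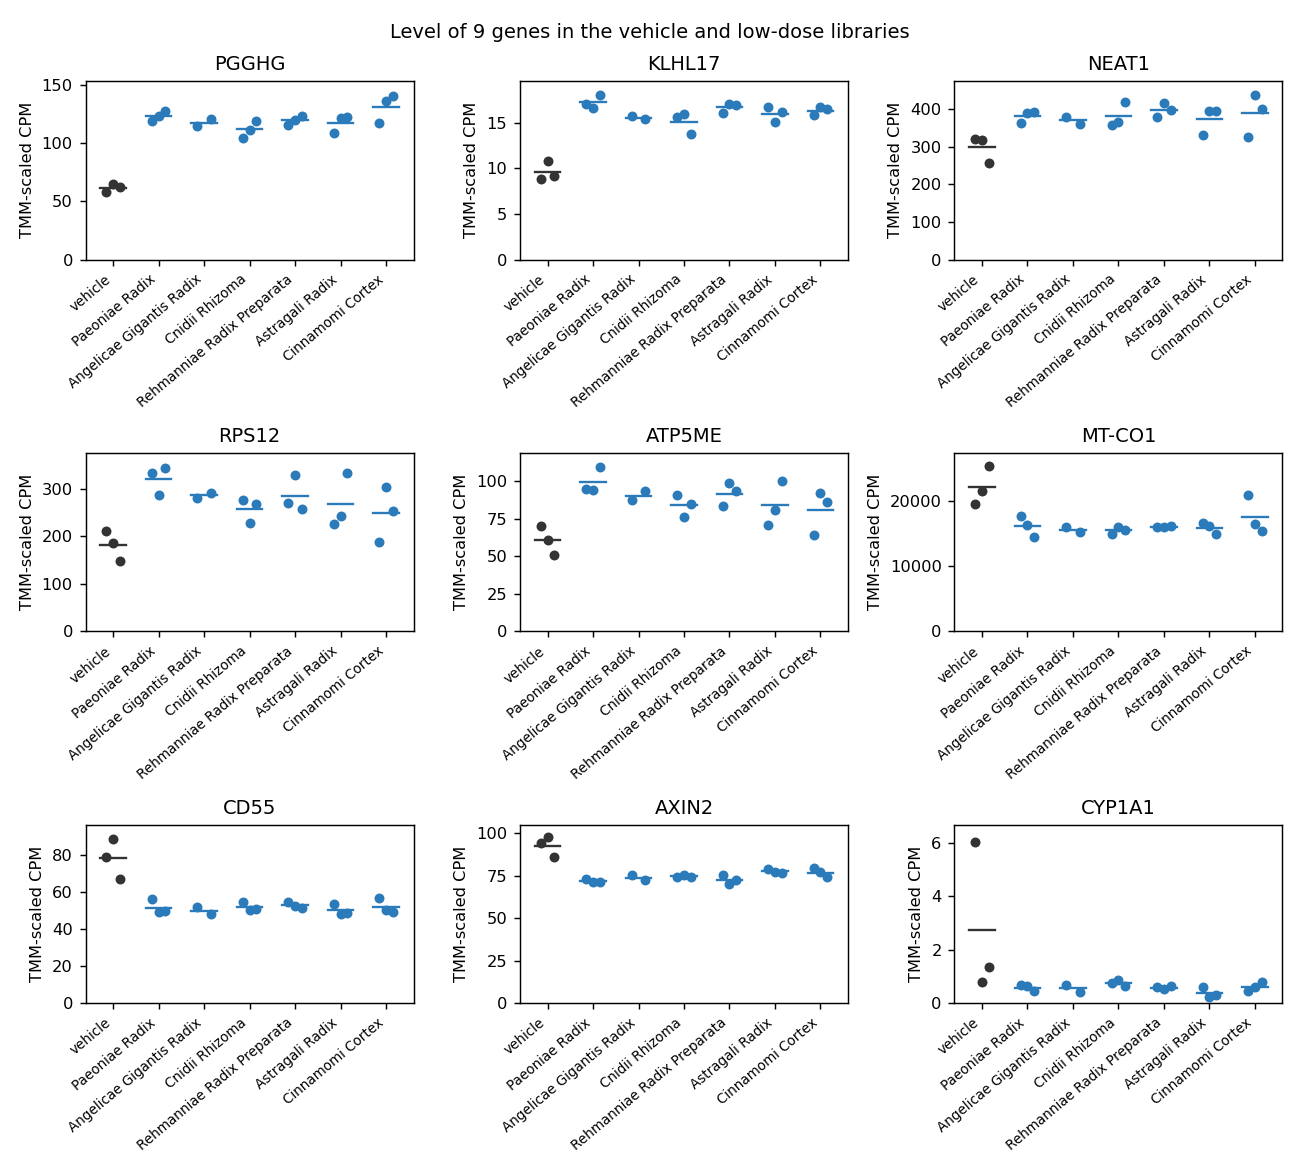
TMM-scaled CPM of 9 genes in each vehicle library (black) and each low-dose library by plant (blue); points are libraries and bars are group means. PGGHG lies at 104.2 CPM or above in all 17 low-dose libraries and at 64.5 CPM or below in vehicle, while RPS12, ATP5ME and MT-CO1 overlap through 1 Cinnamomi Cortex library, and CYP1A1 is high in 1 vehicle library.

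The 10 largest rises among genes of at least 5 CPM with no overlap between groups were mostly GC-rich genes with short introns. Besides PGGHG and KLHL17 they were MAMDC4, CCDC78, HSF4, RHPN1, ATG16L2, PKD1P1, MVP-DT and MSH5-SAPCD1. MAMDC4, which codes for an endocytosis-linked membrane protein, rose by the most. It stood at 3.22, 3.44 and 4.01 CPM in vehicle and at 5.91, 7.78 and 9.28 CPM in the low doses, a log2 difference of 1.10 ± 0.12 (adjusted p = 3.2e-09). HSF4, a heat shock transcription factor, differed by 0.81, and ATG16L2, a paralog of an autophagy factor, by 0.74. PKD1P1 is a pseudogene copy of PKD1, MSH5-SAPCD1 is a read-through of neighbouring genes and MVP-DT is divergent to MVP, so their counts may be shared with those genes and are uncertain. Exonic GC content was 53% to 66.9% in these 10 genes against a median of 49.0% over all genes tested, and mean intron length was 162 to 901 bases against a median of 2917.

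The 10 largest falls by the same rule were CERS6-AS1, AKAP12, RSC1A1, MUC17, ETFRF1, CD55, TLE4, IRX5, NPIPB3 and HOXA2. AKAP12, a scaffold for protein kinase A and C, fell from 15.8, 18 and 12.2 CPM to 7.37, 8.93 and 11.6 CPM, a log2 difference of -0.76 ± 0.11 (adjusted p = 1.5e-06). MUC17, a membrane mucin of the gut, fell from 13.1, 14.1 and 13.3 CPM to 7.22, 8.10 and 10.9 CPM. The homeobox genes IRX5 and HOXA2 both differed by -0.55. CERS6-AS1 lies antisense to another gene and NPIPB3 belongs to a family of near-identical copies, so both are uncertain. RSC1A1 is a single-exon gene that overlaps another, so it is uncertain too. Exonic GC content ran from 34.9% to 58.9% in the 10 falls.

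The mitochondrial and nuclear parts of the respiratory chain moved in opposite directions. Of 13 mitochondrial-genome mRNAs, 12 were lower and 0 higher, with a median log2 difference of -0.51 against 0.004 over all genes. For 1 of the 13, all 17 low-dose libraries lay below all 3 vehicle libraries, and the others overlapped. MT-CO1, the catalytic subunit of cytochrome oxidase, stood at 19417, 21502 and 25232 CPM in vehicle and at 14444, 15955 and 20875 CPM in the low doses. 16 of 17 low-dose libraries lay below all vehicle libraries, and the highest was low-dose Cinnamomi Cortex replicate 1. The log2 difference was -0.45 ± 0.05 (adjusted p = 1.1e-08). MT-ND1, a complex I subunit, differed by -0.57, MT-CO2, another cytochrome oxidase subunit, by -0.56, and MT-ND6, the complex I subunit on the other strand, by -0.58. MT-ND4L did not pass the test (-0.10, adjusted p = 0.34). Without vehicle replicate 3 the median of the list was -0.37, with 11 members lower.

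Of 58 nuclear oxidative phosphorylation genes, 39 were higher and 0 lower, with a median of 0.18. For 6 of the 58, all 17 low-dose libraries lay above all 3 vehicle libraries. ATP5ME, a small subunit of ATP synthase, rose from 69.9, 60.8 and 51.1 CPM to 64.1, 90.8 and 109 CPM, a log2 difference of 0.54 ± 0.10 (adjusted p = 4.7e-05). The complex I subunits NDUFA1 and NDUFB2 differed by 0.50 and 0.42, and UQCRQ of complex III by 0.44. In these genes vehicle replicate 1 was the highest of the vehicle libraries and vehicle replicate 3 the lowest. Without vehicle replicate 3, the list had 26 members higher.

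Among lists of protein synthesis and breakdown, cytosolic ribosomal proteins and the proteasome were mostly called higher, and the others went both ways. Of 78 cytosolic ribosomal protein genes, 46 were higher and 7 lower, with a median of 0.14. RPS12 rose from 210.4, 186.7 and 149.2 CPM to 189, 276.4 and 344.9 CPM, a log2 difference of 0.61 ± 0.11 (adjusted p = 3.8e-05), and RPS21, RPS27A and RPL31 by 0.54, 0.51 and 0.47. Of 31 proteasome genes, 19 were higher and 4 lower, among them the core particle subunits PSMA7 (0.37) and PSMA2 (0.29). In mitochondrial ribosomes 14 of 32 genes were higher and 8 lower. Translation factors had 10 of 26 higher (38.5%) and 8 lower (30.8%). Cytosolic tRNA ligases had 4 of 20 higher and 4 lower (20.0% each), near the shares over genes with introns of at least 5 CPM. Ribosome biogenesis genes had 3 of 33 higher (9.09%) and 9 lower (27.3%). PABPC1, the poly(A)-binding protein, was lower by a log2 difference of -0.28 in all 17 libraries.

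Among stress and metabolic lists, the ATF4 list, which covers the response to amino acid shortage, had 13 of 27 members higher and 2 lower. ATF3, a stress-induced transcription factor, rose from 1.78, 1.79 and 1.62 CPM to 2.43, 2.98 and 3.40 CPM with no overlap, a log2 difference of 0.77 ± 0.13 (adjusted p = 7e-06). TRIB3, a pseudokinase target of ATF4, differed by 0.29, and DDIT4, an inhibitor of mTOR signalling, by 0.35. In glycolysis 10 of 21 genes were higher and 3 lower, including the lactate exporter SLC16A3 (0.43) and PFKFB4 (0.47). Of 13 fatty acid synthesis genes, 7 were higher and 0 lower (4 higher without vehicle replicate 3), and of 21 PPAR and fatty acid oxidation genes 8 and 0. In cholesterol synthesis 10 of 25 were higher and 5 lower, while HMGCS1, an early enzyme of that pathway, did not pass the test (0.00 ± 0.06, adjusted p = 0.97). Of 40 DNA replication genes, 15 were higher and 2 lower, with POLD1, the catalytic subunit of polymerase delta, at 0.38. The mitosis list had 8 of 40 higher (20.0%) and 10 lower (25.0%), near the shares over genes with introns of at least 5 CPM. Within it CDK1 rose by 0.28, and MKI67 was lower at -0.24. CDKN1A, a p53-induced cell cycle inhibitor, did not pass the test (0.04 ± 0.06, adjusted p = 0.66).

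Chromatin regulators and actin-linked genes were called more often as lower. Of 41 chromatin and histone modifiers, 23 were lower and 2 higher, with a median of -0.11. KMT2E, a SET domain protein of chromatin, fell from 143.4, 152.1 and 175.6 CPM to 111.1, 119.8 and 134.7 CPM, a log2 difference of -0.39 ± 0.04 (adjusted p = 4.2e-09). The acetyltransferase CREBBP differed by -0.31, and neither gene had overlapping groups. Of 26 actin and focal adhesion genes, 16 were lower and 2 higher, with a median of -0.15. They included the focal adhesion protein ZYX (-0.36), the actin cross-linker ACTN4 (-0.23) and the actin monomer binder PFN1 (-0.23). Of 70 KRAB zinc finger genes, which repress transposable elements, 15 were lower (21.4%) and 2 higher (2.86%). The share lower was 15.9% over all genes and 22.3% over genes with introns of at least 5 CPM. Without vehicle replicate 3, 9 KRAB genes were lower.

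Of 14 Wnt target and stem cell genes, 6 were lower and 2 higher. AXIN2, a feedback inhibitor that Wnt signalling induces, fell from 94.2, 97.8 and 86.1 CPM to 70.2, 74.3 and 79.6 CPM, a log2 difference of -0.31 ± 0.03 (adjusted p = 7e-11). SOX9, a transcription factor of crypt cells, differed by -0.37 with no overlap. CEACAM5 and CEACAM6, surface glycoproteins of colon epithelium, differed by -0.51 and -0.36. Goblet and secretory lineage genes had 2 of 14 higher and 4 lower. The secreted mucins MUC5AC and MUC2 differed by -0.35 and -0.28, and TFF3, a trefoil peptide of goblet cells, by 0.28 (adjusted p = 0.028, edgeR). MUC2 stood at 17.9, 21.6 and 25.7 CPM in vehicle and at 15.9 to 20.0 CPM in the low doses, so its groups overlapped. Enterocyte and keratin genes had 4 of 20 higher (20.0%) and 5 lower (25.0%), near the shares over genes with introns of at least 5 CPM. The enterocyte keratin KRT20 did not pass the test (-0.02 ± 0.04, adjusted p = 0.75, edgeR). In the list of TXNIP and other glucose-sensing genes, 5 of 10 were lower and 0 higher (3 lower without vehicle replicate 1 and 7 without vehicle replicate 3), with KLF10 at -0.38 and TXNIP itself at -0.11.

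The aryl hydrocarbon receptor (AhR) list had 5 of 9 members lower and 1 higher, and the size of its largest change rested on 1 library. CYP1A1, a detoxifying oxidase that AhR ligands induce, stood at 6.01, 0.805 and 1.35 CPM in vehicle and at 0.24, 0.612 and 0.863 CPM in the low doses. Its log2 difference was -2.22 ± 0.28 (adjusted p = 4.3e-08, edgeR), and -0.91 without vehicle replicate 1, still called (adjusted p = 0.0058, edgeR). CYP1B1, a related oxidase, stood at 90.3, 56.5 and 53 CPM in vehicle and moved from -0.43 to -0.15 without that library (adjusted p = 0.0023, edgeR). TIPARP, an AhR-induced feedback regulator, differed by -0.27 and had no overlap.

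Among nuclear noncoding RNAs, NEAT1, the scaffold of paraspeckles, rose from 321.1, 319.2 and 255.7 CPM to 327.3, 391.1 and 438.8 CPM, a log2 difference of 0.36 ± 0.06 (adjusted p = 2.5e-05). MALAT1 did not pass the test (-0.03 ± 0.05, adjusted p = 0.75). The snoRNA host gene SNHG12 rose by 0.50 and the imprinted RNA KCNQ1OT1 was lower by -0.44. 10 of the 23 genes in the list were higher and 3 lower.

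**Figure D2:**
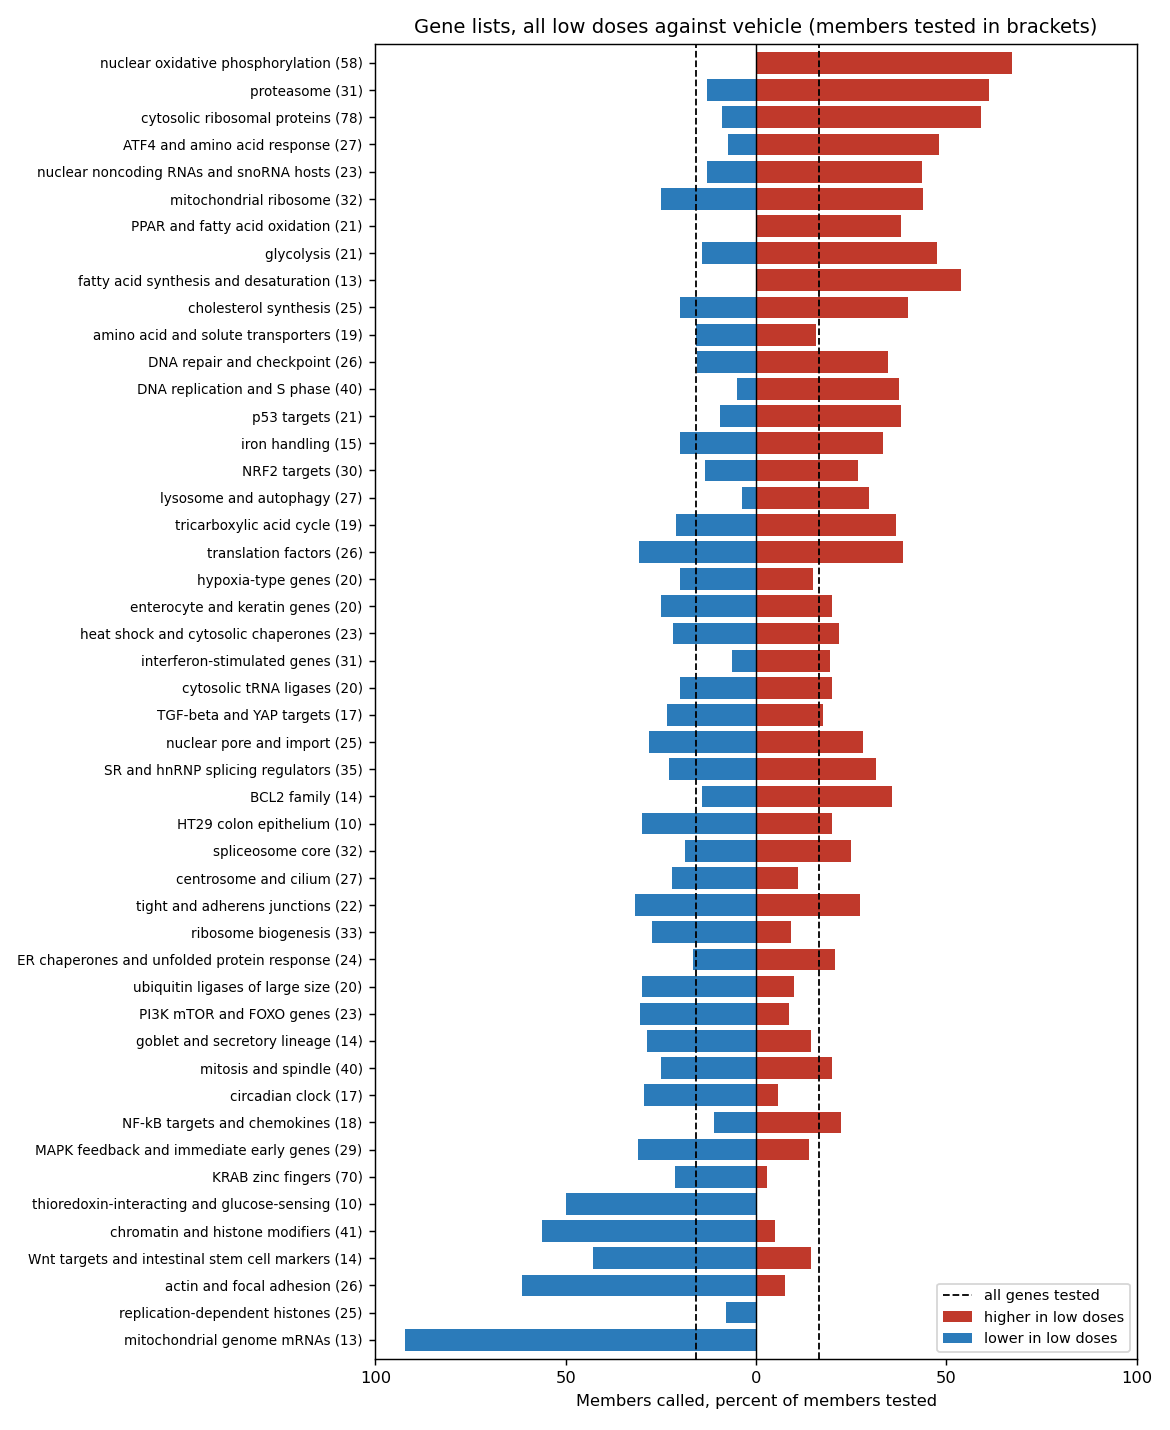
Percent of tested members called higher (red, to the right) and lower (blue, to the left) in all low doses against vehicle, for each list with at least 10 tested members, ordered by the list's median log2 difference. Dashed lines mark all genes tested, 16.6% higher and 15.9% lower; nuclear oxidative phosphorylation reaches 67.2% higher and mitochondrial-genome mRNAs 92.3% lower.

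Calls followed the physical properties of genes. Over quintiles of exonic GC content, from lowest to highest, the share of genes higher in the low doses was 8.25%, 11.1%, 13.9%, 21.3% and 28.7%, and the share lower was 21%, 18.4%, 15.8%, 12.9% and 11.6%. The median log2 difference ran from -0.036 to 0.074. Over quintiles of total intron length, for the 14449 genes with introns, the share higher was 22.8%, 24.9%, 19.3%, 15.3% and 8.72%. The share lower rose from 11.6% to 24.5%. Mean intron length, added after the planned properties and read over the same genes, gave a steeper order of the share higher than GC content, in the opposite sense. In the quintile with the shortest introns 31.3% of genes were higher and 10.6% lower, and in that with the longest 8.44% were higher and 20.6% lower. For exonic length the longest quintile had 10.9% higher and 25.8% lower, and the shortest 15.6% and 8.85%. The share higher was largest in quintile 2, at 21.3%. Among genes of at least 5 CPM the longest quintile had 11.4% higher and 32.6% lower, and the shortest 34.4% and 16.7%.

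GC content and introns are related across genes, so the outer groups were crossed. Of 1334 genes with the shortest introns and the highest GC content, 38.7% were higher. Of 122 genes with equally short introns and the lowest GC content, 14.8% were higher and 11.5% lower. Of 191 genes with long introns and high GC content, 11.5% were higher and 20.9% lower. Among genes with long introns and low GC content, 24.1% of 812 were lower.

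The number of annotated retained-intron transcripts, also added after the planned properties, went with the same pattern. Genes with no annotated retained-intron transcript were higher in 11.9% of cases, and genes with 7 or more in 36.2%, while the share lower was 13.9% and 15.6%. Among genes of at least 5 CPM the shares were 19.1% and 39.0% higher. The shares lower, 23.4% and 17.2%, then ran in the reverse order. Of 772 genes with short introns and 4 or more such transcripts, 48.2% were higher. Of 2049 genes with no intron, 5.71% were higher and 8.98% lower, and of the 397 with at least 5 CPM, 15.9% and 25.7%. The table used here holds counts per gene and does not separate reads from introns, so the amount of unspliced RNA was not tested.

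**Figure D3:**
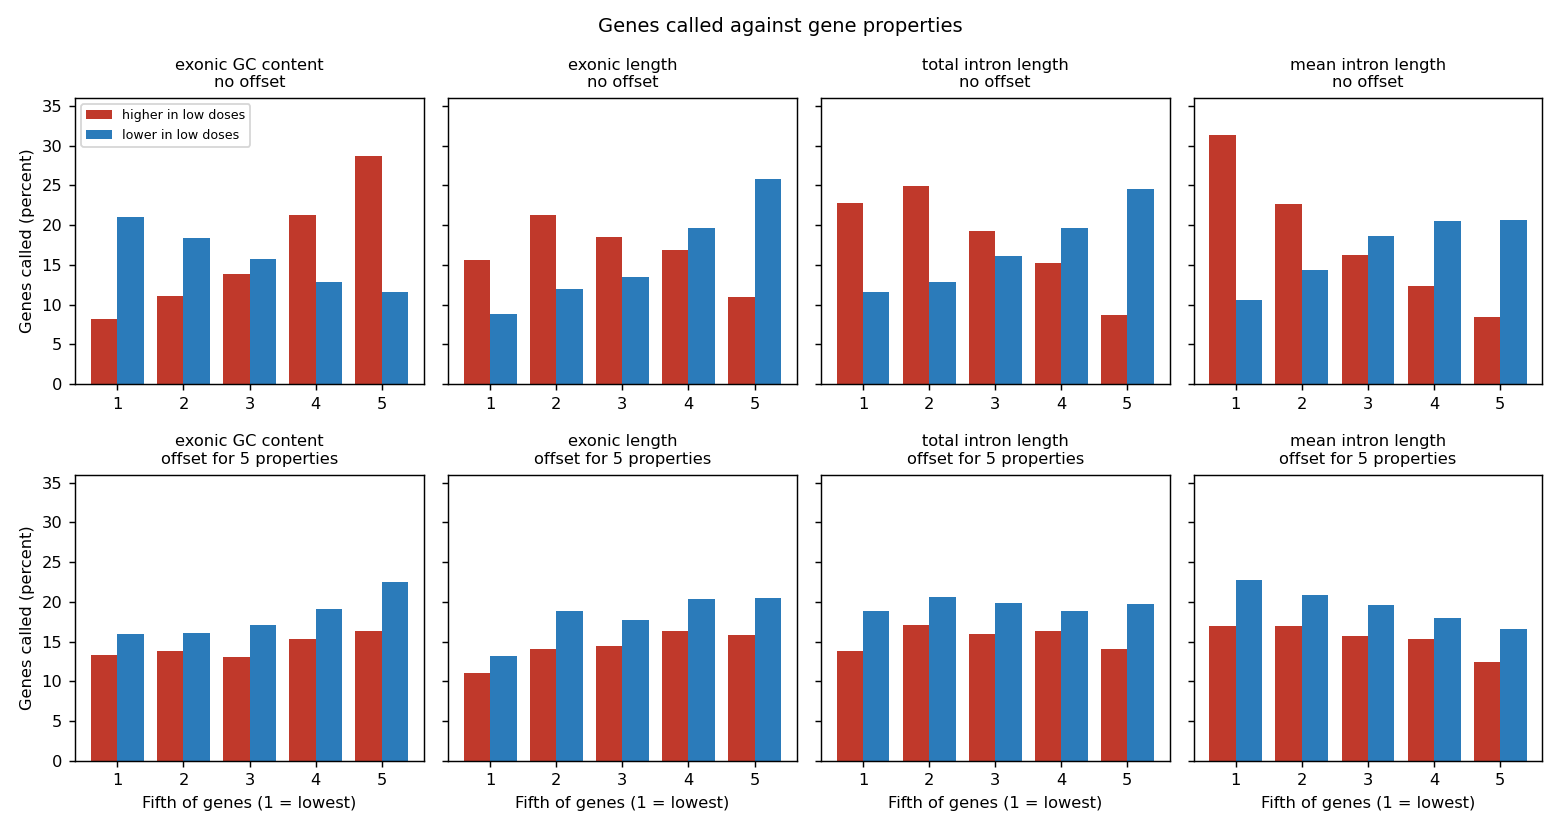
Percent of genes called higher (red) and lower (blue) in the low doses by quintile of 4 gene properties, before (top row) and after (bottom row) each library's trend on 5 properties was taken out as an offset. The shares run in opposite directions in the top row, from 8.25% to 28.7% higher across GC content. In the bottom row the share higher lies between 11.1% and 17.1%. The share lower there rises from 15.9% to 22.5% with GC content, the reverse of its order in the top row.

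Taking out those trends left about as many calls. The range of the share higher across quintiles was narrower. That narrowing follows largely from the offset itself, which was fitted to the same properties in the same libraries. With 5 properties as an offset, the share lower rose from 15.9% to 22.5% from the lowest to the highest GC content. It fell from 22.8% to 16.6% from the shortest to the longest mean intron length. Both are the reverse of the order without an offset. Across exonic length the share lower was 13.2% in the shortest quintile and 20.5% in the longest, the same direction as without an offset. It was not in order between them, with 18.9% in quintile 2 and 17.7% in quintile 3. With an offset for exonic length, GC content and total intron length, 2449 genes were higher and 2980 lower, and with mean intron length and retained-intron transcripts added, 2374 and 3004. Of the genes called without an offset, 2010 of 2758 were called higher and 2279 of 2641 lower with all 5 properties, and 5 were called the other way.

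The function lists changed unequally under the offset for 5 properties. Mitochondrial-genome mRNAs had 12 lower with a median of -0.51, and nuclear oxidative phosphorylation had 39 higher but also 6 lower. Actin and focal adhesion genes had 18 lower, and chromatin modifiers 22. Cytosolic ribosomal proteins went from 46 higher and 7 lower to 31 and 18, with a median of 0.03, and the mitochondrial ribosome from 14 and 8 to 11 and 9. The proteasome had 16 higher and 6 lower, and ATF4 targets 10 and 4. Fatty acid synthesis genes went from 7 higher to 4. Among single genes, PGGHG stood at 0.80, KLHL17 at 0.56, CD55 at -0.60 and AXIN2 at -0.33, each past the threshold.

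The same trends were read in each library as a slope of its log2 levels, relative to the mean of the 20 libraries, on each property. The slope on GC content was -0.0438, -0.0387 and -0.0322 log2 units per 10 percentage points in the vehicle libraries. In the low doses it ran from -0.0156 to 0.0389 with a median of 0.0023, so the groups did not overlap (exact permutation test over libraries, two-sided, p = 0.00088, the smallest that 1140 splits allow; adjusted over 11 scores, 0.0024). The slope on mean intron length was 0.0504, 0.0547 and 0.0785 in vehicle and at most 0.0208 in the low doses, and the slope on retained-intron transcripts was also apart in all 17 libraries. The slope on exonic length overlapped, with 15 of 17 libraries below vehicle (adjusted p = 0.015, exact permutation test), and it lost its call without vehicle replicate 3.

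Composition scores moved as the gene lists did. Mitochondrial-genome mRNAs took 8.0%, 9.15% and 10.5% of counts in vehicle and 6.27%, 6.72% and 8.56% in the lowest, median and highest low-dose library (adjusted p = 0.0028, exact permutation test). Cytosolic ribosomal protein genes took 5.63%, 5.34% and 5.16% in vehicle and 5.50%, 6.00% and 6.25% in the low doses, again overlapping by 1 library. More genes had a count in the low doses, 21864 to 22744 against 21435 to 21661. Total counts were also higher in 16 of 17 of those libraries, and the part of depth in this number was not tested. The share of counts in genes with no intron was 1.70% to 1.74% in the low doses, so it did not include the mitochondrial-genome mRNAs. That share did not separate the groups (adjusted p = 0.51, exact permutation test).

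**Figure D4:**
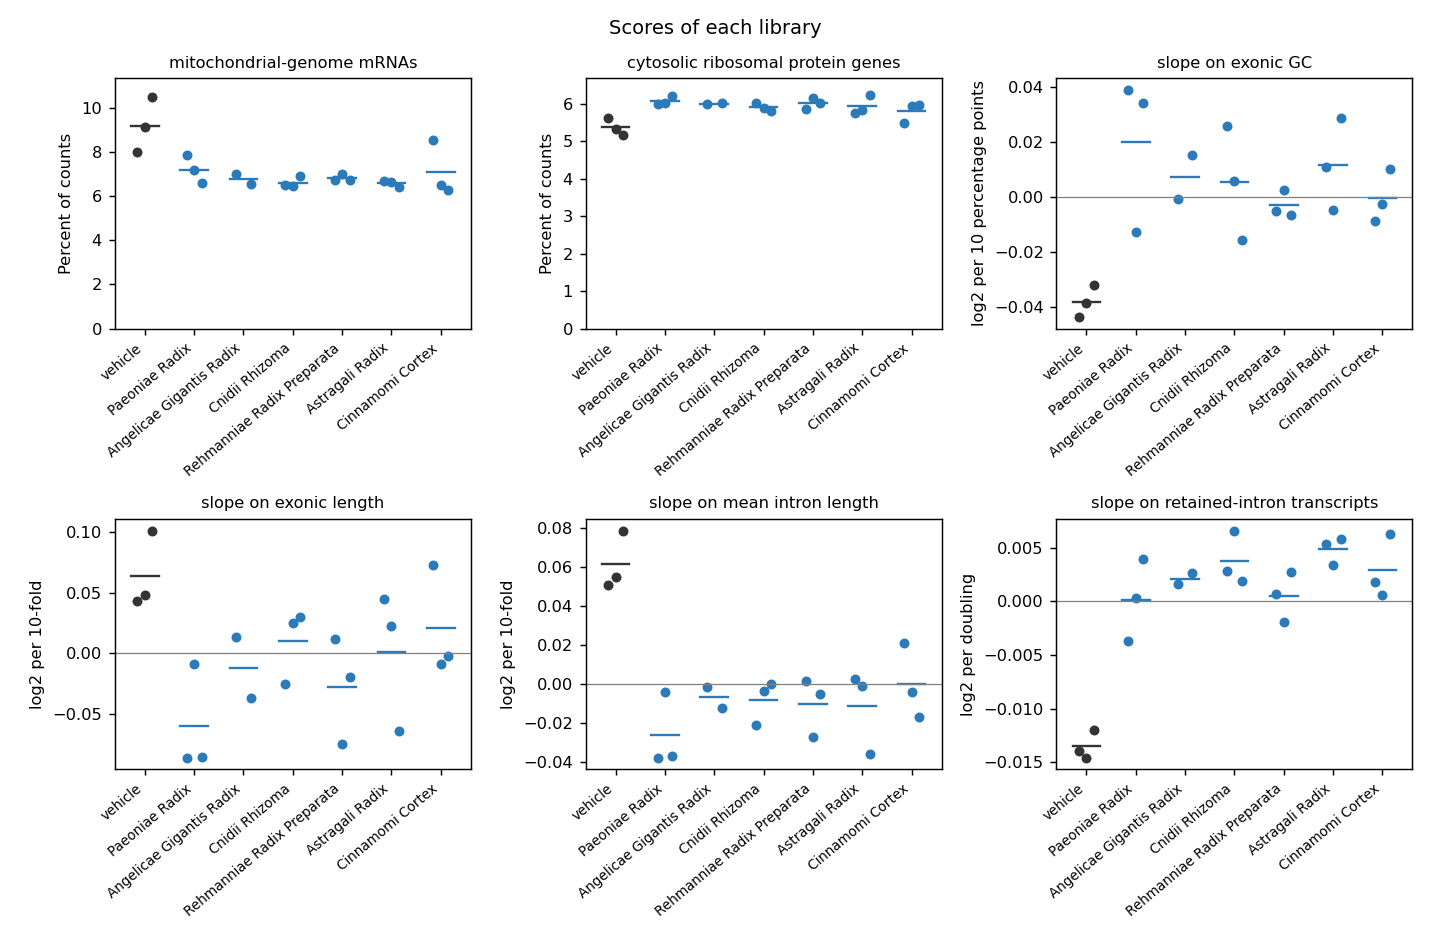
Scores of each library, for vehicle (black) and the low doses by plant (blue); points are libraries and bars are group means. In the upper left panel mitochondrial-genome mRNAs take 8.0% to 10.5% of counts in vehicle and 6.27% to 8.56% in the low doses, and the slopes on GC content, mean intron length and retained-intron transcripts do not overlap.

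The difference from vehicle was spread over all 6 plants. Each low dose against the same 3 vehicle libraries gave 3231 to 4317 called genes (19.5% to 26.0% of genes tested), most for Paeoniae Radix and fewest for Cinnamomi Cortex. Because these contrasts share the vehicle, their likeness is not independent evidence. The median of the mitochondrial-genome list was -0.40 for Paeoniae Radix and -0.60 for Astragali Radix, with the other 4 plants between, and that of nuclear oxidative phosphorylation 0.13 for Cinnamomi Cortex to 0.20 for Rehmanniae Radix Preparata and Angelicae Gigantis Radix. Low-dose libraries of the formulas Sagunja-tang and Samul-tang, 1 each and outside the contrast, had PGGHG at 106.9 and 115.1 CPM, CD55 at 53.3 and 54.2 CPM, and 5.76% and 6.70% of counts in mitochondrial-genome mRNAs.

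Against each other, the low doses differed in few genes. An F test over the 6 plants called 7 genes, 0.0421% of those tested. AKR1B10, an aldo-keto reductase that NRF2 induces, was highest with Cnidii Rhizoma at 119.1 ± 1.98 CPM (SD, n = 3) and lowest with Cinnamomi Cortex at 90.1 ± 1.26 CPM (n = 3), with vehicle at 102.9, 92.9 and 86.3 CPM. ALDH3A1, an aldehyde dehydrogenase, was highest with Cnidii Rhizoma as well, at 29.7 ± 0.793 CPM (n = 3), and lowest with Paeoniae Radix at 24.1 ± 0.703 CPM (n = 3). The aldo-keto reductases AKR1C1 and AKR1C2, which are close paralogs whose reads can be split between them, were highest with Astragali Radix, at 19.2 and 14.8 CPM. SELENOW, a small selenoprotein, was lowest with Astragali Radix at 97.2 ± 2.10 CPM (n = 3). ATP5MG, an ATP synthase subunit, was highest with Paeoniae Radix at 273.5 ± 27.6 CPM (n = 3). The seventh gene, AC027277.1, was under 4 CPM in all 20 libraries and was named after its values were seen.

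**Figure D5:**
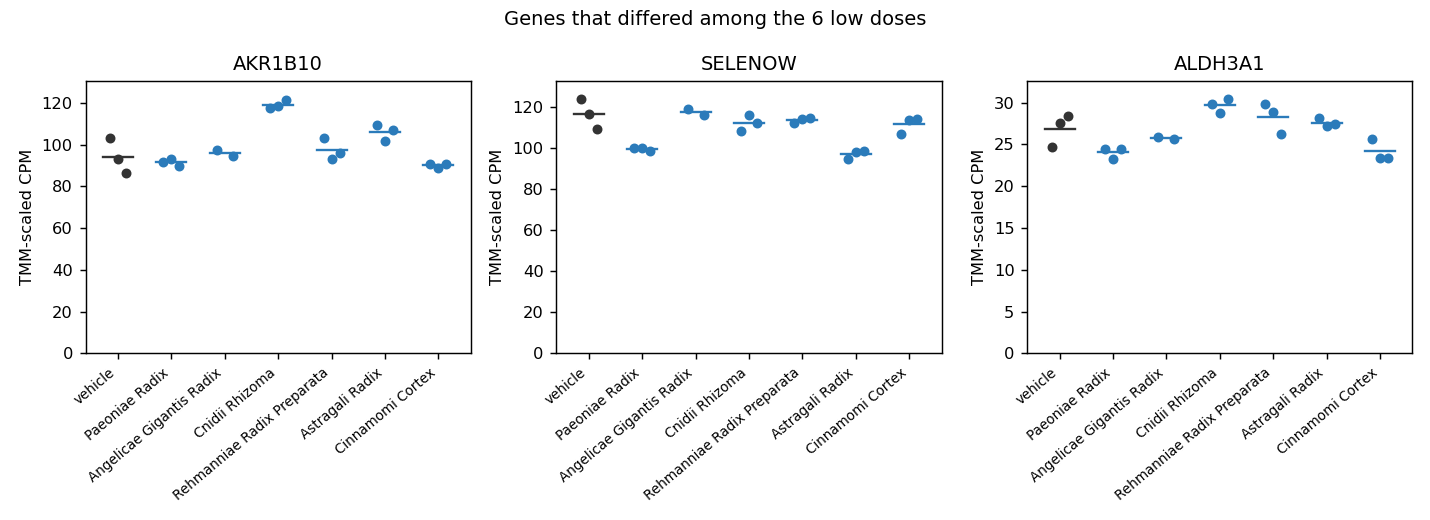
TMM-scaled CPM of AKR1B10, SELENOW and ALDH3A1 in each library of vehicle (black) and of the low doses by plant (blue); points are libraries and bars are group means. AKR1B10 reaches 121.3 CPM with Cnidii Rhizoma and 88.6 CPM with Cinnamomi Cortex.

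Set against the mean of the other low doses, Paeoniae Radix had 39 genes higher and 8 lower (0.283% of genes tested in all). Astragali Radix had 4 called genes (0.0241%) and Cnidii Rhizoma 3 (0.0181%), and Angelicae Gigantis Radix, Rehmanniae Radix Preparata and Cinnamomi Cortex had 0 by edgeR. For these 3 plants 537, 691 and 976 genes had an unadjusted p under 0.05, and DESeq2 called 0, 0 and 1. The count for Paeoniae Radix was 0 without its replicate 1 and 187 without its replicate 2.

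The medium doses were compared with the low doses to place the difference by dose. Pooled over the 6 plants, 993 genes were higher and 986 lower in the medium than in the low doses (5.98% and 5.94%, 11.9% of genes tested in all). These contrasts share the low-dose libraries with those above, so the values stand side by side. NRF2 targets had 26 of 30 members higher in medium than in low with a median of 0.14, whereas against vehicle the pooled low doses had 8 higher and 4 lower. That count was 4 higher without vehicle replicate 3 and 11 without vehicle replicate 1. By plant, the low doses of Cnidii Rhizoma and Astragali Radix each had 13 members higher and 1 lower than vehicle, and the other plants 2 to 5 higher and 4 to 5 lower; the difference between plants was not tested for the list. AKR1B10 differed by 0.38 from low to medium and by 0.08 ± 0.03 from vehicle to low (adjusted p = 0.049). Mitochondrial-genome mRNAs, 12 of 13 lower in the low doses, had 0 called from low to medium, with a median of 0.01. Nuclear oxidative phosphorylation had 2 higher and 0 lower. PGGHG, which was higher in the low doses, stood at 100.4 CPM in the medium doses, -0.31 from low to medium (adjusted p = 7.2e-10), and RHPN1, KLHL17 and HSF4 also differed downward, by -0.21, -0.15 and -0.26.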

How the data were processed

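RNA of HT29 cells was sequenced with a directional kit as 100 bp paired-end reads, from RNA with an integrity number over 7, per the labels' protocols. The submitters' processing notes name FastQC 0.11.9, Trim Galore 0.6.5, STAR 2.7.3a, RSEM 1.3.3 and the build GRCh38 (hg38). The authors deposited expected counts per gene, in which reads shared by several genes are divided by estimate. They were rounded to whole counts here. Of 273 columns 60 were used and 213, which match no sample here, were not. Entries with no name held 0.0504% of counts.

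Genes were tested with edgeR 4.0.16 (R 4.3.3): filterByExpr, TMM scaling and the quasi-likelihood test over 18 groups, with Benjamini-Hochberg adjustment at 0.05. CPM are TMM-scaled. Exonic length, GC content and introns came from GENCODE v29 and covered 99.3% of tested genes (mean intron length 87.0%, the genes with introns). Offsets took out each library's trend on these properties. Scores used log2(CPM + 0.5). Alternatives included DESeq2 1.42.0, other scalings and filters, and leaving out each library. The scripts were tested on simulated data. Total counts of 21077025 to 30327461 set the precision.

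The text names the 10 largest rises and falls among called genes of at least 5 CPM whose groups do not overlap, leading members of each list, fixed genes and the 6 smallest p among low doses. Members and lists were chosen with earlier results of these data known.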

Additional observations from a re-analysis of the deposited data

Results flagged for a closer look

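The genes below differed among the 6 low doses in an F test over plants (edgeR, adjusted over 16608 genes), which does not use vehicle. AKR1B10 had an adjusted p of 6.8e-08, with plant means from 90.1 CPM for Cinnamomi Cortex to 119.1 CPM for Cnidii Rhizoma. SELENOW had 4.4e-05, with means from 97.2 CPM for Astragali Radix and 99.5 CPM for Paeoniae Radix to 117.6 CPM for Angelicae Gigantis Radix. ALDH3A1 had 0.00016, with means from 24.1 to 29.7 CPM. AKR1C1 had 0.0064, with means from 15.0 CPM for Cinnamomi Cortex to 19.2 CPM for Astragali Radix. ATP5MG had 0.0091, with means from 213.2 CPM for Cnidii Rhizoma to 273.5 CPM for Paeoniae Radix. AKR1C2 had 0.018, with means from 10.3 CPM for Angelicae Gigantis Radix to 14.8 CPM for Astragali Radix.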

How the results depend on the processing

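Of 211 called genes among those named, 104 stayed called under every alternative, 38 lost the call without vehicle replicate 3 and 91 with all 54 replicated libraries. With all 54, the calls were 1939 (1112 higher, 827 lower) against vehicle in the pooled contrast, 817, 341, 525, 775, 574 and 443 for Paeoniae, Angelicae, Cnidii, Rehmanniae, Astragali and Cinnamomi, 196 for medium against low, 2, 1 and 0 for Paeoniae, Cnidii and Astragali against the other low doses, and 1 among the low doses, with 0 lists mostly called one way (8 in the reported fit). Library totals gave 4259 higher and 1490 lower, 31 for Paeoniae against the others and 15 such lists. With no filter on low counts the plants against the others gave 345, 75, 108, 80, 115 and 118 in the same order, and 544 genes differed among low doses. With only low-dose and vehicle libraries these were 3 for Paeoniae, 1 for Cnidii and 2 among low doses, and DESeq2 gave 7 for Cnidii, 1 for Cinnamomi and 19 among low doses. The cause was not tested. The difference of medians between outer quintiles of exonic length was -0.099 for genes of at least 5 CPM and -0.102 for protein-coding genes, against -0.073, and that of GC content 0.098 against 0.11. QARS1 changed sign under the offset for mean intron length (-0.002) and for 5 properties (-0.05), and SLC25A1 under that for 3 properties (-0.001, and -0.0007 with the replicate block) and 5 (-0.06).

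The replicate block gave 2817 higher and 2725 lower, 5 for Cnidii and 2 for Cinnamomi against the others, and 11 among low doses. Replicate numbers were not used as pairs: the deviations of same-numbered libraries correlated from -0.42 to 0.47 (median 0.02), with 21 of 57 over 0.1, although 15 of 20 libraries correlated better with their own number.

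Leaving out 1 library at a time gave 1822 (vehicle replicate 3) to 2816 genes higher. Against vehicle it gave 1760 (Angelicae replicate 2) to 3544 genes for Angelicae, 2178 to 3665 for Cnidii and 2591 to 4084 for Rehmanniae (lowest without vehicle replicate 3), 2361 (Astragali replicate 3) to 3807 for Astragali, and 1688 (Cinnamomi replicate 2) to 3847 for Cinnamomi. Against the other low doses it gave 0 to 187 for Paeoniae, 1 to 5 for Cnidii, 0 to 4 for Astragali and 0 to 1 for Cinnamomi, and 4 to 44 genes differed among low doses, most without Paeoniae replicate 2. Lists mostly called one way numbered 4 (vehicle replicate 3) to 8. The difference in the slope on exonic length ran from -0.0863 to -0.0571, and lost its call without vehicle replicate 3.

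Vehicle has 3 libraries, whose codes differ from those of all extracts, and depth limits what can be said of genes under the count filter.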
